A study of Mus musculus with 6 samples.

Results

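Of the 43346 genes counted in primary mouse adult fibroblasts (MAFs), 37 genes of glycolysis and of the response to low oxygen were followed through radiation-induced senescence. They were found by their gene names in the count table. Each of the 37 matched 1 row, and all 37 had enough counts to be tested. Relative to the rest of each library, mRNA of most of them was lower in senescent than in control MAFs. Of the 37, 26 were lower (70.3%, against 34.1% of all tested genes), 7 were higher (18.9%, against 36.2%) and 4 did not pass the test. The decrease ran through most of glycolysis, from phosphofructokinase to lactate export. It left out hexokinase, where *Hk2* rose, and the genes that rose also included *Epas1*, *Slc2a3*, *Adm* and *Ndrg1*.

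Poly(A) RNA was sequenced from 3 control and 3 senescent samples, to find which genes differ in senescence beside a map of the binding of the circadian factor BMAL1. Ear fibroblasts of adult female C57BL6/J mice were kept at 3% oxygen. Control cells were sham irradiated. X-rays at 20 Gy made the other cells senescent over weeks of further culture. Cells of both groups were given 100 nM dexamethasone, a glucocorticoid that sets circadian clocks to a common phase, for 2 hours and were collected 12 hours later. No library came from another oxygen level, so the response of these genes to low oxygen was not itself measured. The labels do not say whether the replicates were separate cultures or animals, and p-values measure only the spread between these samples, which may be technical.

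Glycolysis splits glucose into pyruvate in the cytosol and yields ATP without oxygen. Lactate dehydrogenase then turns pyruvate into lactate, which leaves the cell through monocarboxylate transporters. When oxygen is scarce, the transcription factors HIF-1α (*Hif1a*) and HIF-2α (*Epas1*) escape hydroxylation by the prolyl hydroxylases (*Egln1*, *Egln2*, *Egln3*) and destruction through the von Hippel-Lindau protein (*Vhl*). They pair with ARNT (*Arnt*) and bind the hypoxia response core, ACGTG or GCGTG, in promoters of glycolytic enzymes, glucose transporters, collagen-modifying enzymes and other genes. HIF protein is regulated mainly by its stability, which mRNA counts do not show.

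Promoters of 6 members are printed because they hold this core in genes that fell (*Ldha*, *Pgk1*, *Pdk1*, *Slc16a3*) and in genes that rose (*Hk2*, *Adm*). The stretches end 1 base before the RefSeq transcription start (GRCm38.p6, the assembly that mm10 names) and read 5′ to 3′ on the strand of the gene. Capitals mark the core and its reverse complements, CACGT and CACGC. The E-box, bound by BMAL1 with its partner CLOCK and spelled CACGTG, holds the core on both strands.
Ldha, chr7:46845654-46845803, plus strand: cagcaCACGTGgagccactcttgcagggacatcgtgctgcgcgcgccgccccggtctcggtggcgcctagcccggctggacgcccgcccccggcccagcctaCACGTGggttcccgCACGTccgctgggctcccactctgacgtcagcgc
Pgk1, chrX:106186950-106187099, plus strand: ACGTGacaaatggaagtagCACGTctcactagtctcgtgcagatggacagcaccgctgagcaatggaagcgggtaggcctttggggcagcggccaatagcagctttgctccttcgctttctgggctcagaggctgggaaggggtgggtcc
Pdk1, chr2:71873124-71873223, plus strand: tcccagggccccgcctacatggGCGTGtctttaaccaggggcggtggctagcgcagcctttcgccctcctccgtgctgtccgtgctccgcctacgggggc
Slc16a3, chr11:120948967-120949066, plus strand: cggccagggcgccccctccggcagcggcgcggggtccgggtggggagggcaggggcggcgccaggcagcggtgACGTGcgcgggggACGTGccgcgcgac
Hk2, chr6:82774455-82774554, minus strand: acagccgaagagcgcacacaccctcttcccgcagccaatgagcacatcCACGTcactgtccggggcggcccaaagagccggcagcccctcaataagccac
Adm, chr7:110627557-110627656, plus strand: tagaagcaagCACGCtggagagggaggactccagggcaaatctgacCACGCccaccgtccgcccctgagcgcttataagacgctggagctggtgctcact
*Ldha* carried 2 E-boxes and 1 further core in this stretch. *Pgk1*, *Slc16a3* and *Adm* had 2 cores each, and *Pdk1* and *Hk2* had 1 each. In windows from 250 bases before to 50 bases after the start, the core was found on either strand in 28 of the 33 members with a window (84.8%) and in 46.7% of all 27025 genes with one. Members that fell held it in 22 of 25 cases and members that rose in 3 of 4. A gene was counted if any of its windows held the letters, so genes with several windows were favoured. The 33 members had 49 windows and the 27025 genes had 32851, of which 43.8% held the core. The E-box was found in 5 of the 33 (15.2%, against 8.09% of all genes) and the AP-1 site TGACTCA or TGAGTCA in 3 (9.09%, against 5.95%). *Slc2a3*, *Ndrg1*, *Plod2* and *Epas1* were not among the matched genes. A match of these letters is a description and not a measured binding site.

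Libraries held 50288454 to 82229553 counts, and the common biological coefficient of variation was 0.1004. Levels are counts scaled to a common library total (CPM) after TMM scaling, which equalises libraries for size and composition, and a level per length is CPM per 1000 bases of the gene (RPKM). Differences are log2 fold changes, senescent minus control. Senescent replicate 3 stood apart: the root mean square log2 difference was 0.288 and 0.308 to the other senescent replicates, 0.138 between those and 0.141 to 0.174 among controls. It was the lowest senescent library in 24 of the 37 members and the highest in 12, and it was the lowest in 13 of 14 glycolytic enzymes. For each list of cell type markers, the gene named as leading had the highest mean CPM in control libraries. In senescent libraries another gene was highest in the fibroblast, chondrocyte, macrophage and endothelial lists. Of the cell type markers, the 10 fibroblast genes summed to 17810 to 19901 CPM in control and 6717 to 8018 CPM in senescent libraries. Led by *Col1a2*, 5 of them fell, and 4 rose. The chondrocyte list of 10 genes, led by *Col2a1*, summed to 7204 to 7680 CPM in control and 620.1 to 702 CPM in senescent libraries, and all 10 fell. Macrophage genes, led by *Cd68*, summed to 8.62 to 9.40 and 19.8 to 22.5 CPM, and endothelial genes, led by *Tek*, to 2.55 to 2.96 and 8.30 to 8.85 CPM, with 7 of 7 and 5 of 5 tested genes rising. Muscle genes, led by *Acta1*, lay at 17.8 to 22.8 and 17.6 to 30.4 CPM, keratinocyte genes, led by *Trp63*, at 16.4 to 17.0 and 9.53 to 9.94 CPM, and adipocyte genes, led by *Pparg*, at 95.4 to 101 and 50.4 to 55.1 CPM. Of their tested genes, 2 of 4 muscle genes rose, 1 of 4 keratinocyte genes rose and 1 fell (*Trp63*), and 1 of 3 adipocyte genes rose and 2 fell. Over all tested genes, 36.2% rose and 34.1% fell. No marker had 0 counts in all libraries, but *Dsg3*, *Tie1*, *Lep* and *Cidec* had at most 3 in any. Many of these markers differed between the same groups that are compared below, and their part in those results was not tested. In such bulk RNA, fewer cells of a type and less RNA per cell cannot be told apart.

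At an adjusted p under 0.05 (edgeR's quasi-likelihood test, Benjamini-Hochberg over 17589 genes), 7 members were higher (18.9%, against a background of 36.2% of all tested genes) and 26 were lower (70.3%, against 34.1%). The methods of the study give a threshold of an unadjusted p under 0.05 and a fold over 2. With this, called the study's threshold here, 3 members were higher (8.11%, background 17.8%) and 7 lower (18.9%, background 12.3%). The results text of the study gives another p limit with the same fold, which was not applied here. Control and senescent libraries did not overlap in 34 members (91.9%, background 75.3%). The median log2 fold change was -0.51 in the members and 0.0085 in all tested genes, and member values ran from -2.21 (*Aldoc*) to 1.41 (*Epas1*).

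**Figure D1:**
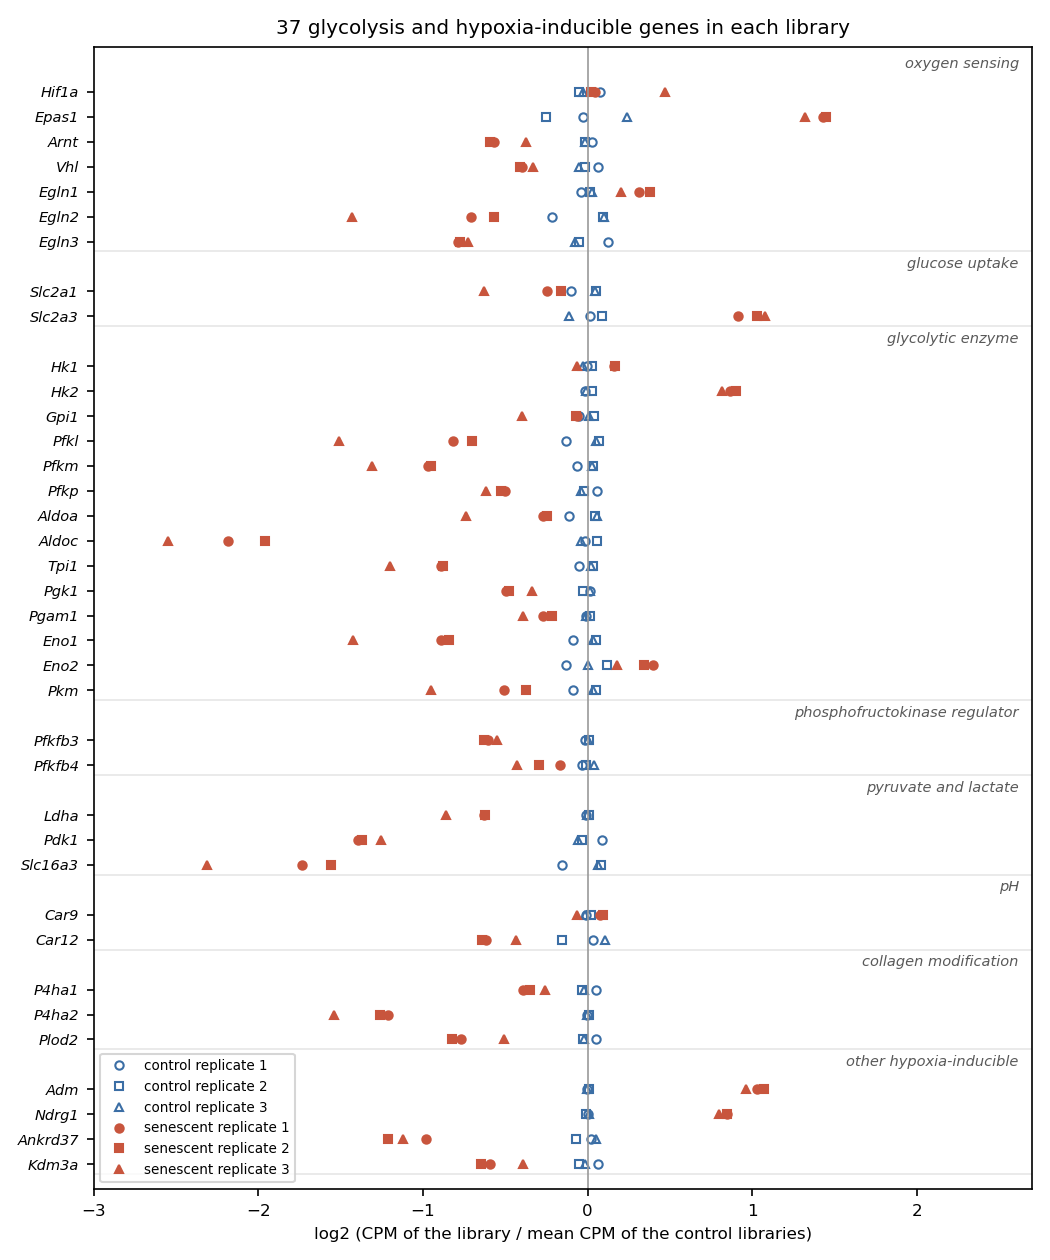
Each row is 1 of the 37 genes, grouped by role, and each point is 1 library, placed by the log2 of its CPM over the mean CPM of the 3 control libraries (open blue symbols control, filled red symbols senescent, symbol shape the replicate). Senescent points lie left of the control points in most rows, farthest for *Aldoc*, *Slc16a3* and *Pdk1*, and right of them for *Epas1*, *Slc2a3*, *Adm*, *Hk2* and *Ndrg1*.

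**Figure D2:**
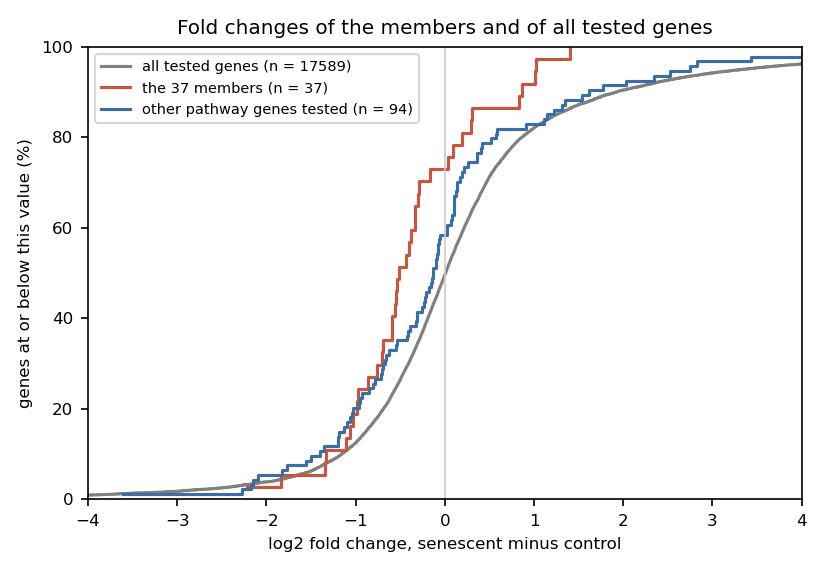
The curves give the percent of genes at or below each log2 fold change (senescent minus control) for all 17589 tested genes (grey), the 37 members (red) and 94 tested genes of related lists (blue). The member curve lies to the left of the others through its middle, with a median of -0.51 against 0.0085 for all tested genes and -0.14 for the related lists.

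Among the 7 genes that sense oxygen, 2 rose (28.6%, background 36.2%), 4 fell (57.1%, background 34.1%) and *Hif1a* did not pass the test. *Epas1* (ENSMUSG00000024140, chromosome 17 of mm10 from 86753907 to 86833410), which encodes HIF-2α, was at 4.53, 3.88 and 5.46 CPM in control replicates 1, 2 and 3 and at 12.5, 12.6 and 11.5 CPM in senescent replicates 1, 2 and 3. All senescent libraries were above all control libraries, and the level rose 2.64-fold (log2 fold change 1.41, SE 0.13, edgeR adjusted p = 3.23e-05). *Hif1a* (chromosome 12 of mm10 from 73901375 to 73947530), which encodes HIF-1α, was at 180.1, 165 and 168 CPM in control and 176, 173 and 236 CPM in senescent libraries, in the order of the replicates. Only senescent replicate 3 lay above the control range, and the log2 fold change of 0.19 had a 95% interval from -0.087 to 0.47 (edgeR adjusted p = 0.187). Per length, *Hif1a* was the more abundant of the pair, at 33.1 ± 6.06 RPKM in senescent cells against 2.30 ± 0.112 RPKM for *Epas1* (SD, n = 3).

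*Arnt*, the shared partner of both HIFs, fell from 114 ± 1.84 to 80.5 ± 6.73 CPM (SD, n = 3 per group; log2 fold change -0.51, edgeR adjusted p = 0.000339). *Vhl*, whose protein marks hydroxylated HIF for degradation, fell from 29.4 ± 1.22 to 22.6 ± 0.667 CPM (log2 fold change -0.38, edgeR adjusted p = 0.00120). The 3 prolyl hydroxylases did not move together. *Egln1*, which encodes PHD2, the main HIF hydroxylase in most cells, rose from 74.9, 77.9 and 78.4 CPM in the control libraries to 95.5, 100.2 and 88.6 CPM in the senescent libraries (log2 fold change 0.30, SE 0.063, edgeR adjusted p = 0.00327). *Egln3*, itself a HIF target, fell from 30.6, 27.1 and 26.6 CPM to 16.3, 16.5 and 17.0 CPM (log2 fold change -0.76, edgeR adjusted p = 6.22e-05). *Egln2* fell from 34.0, 42.1 and 42.4 CPM to 24.2, 26.6 and 14.7 CPM, with the widest spread of the family (SE 0.21, log2 fold change -0.86, edgeR adjusted p = 0.00667). None of the 3 overlapped between the groups, beside 75.3% of all tested genes without overlap. Without senescent replicate 3, the mean of *Egln2* in senescent cells was 25.4 in place of 21.8 CPM.

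The share of the summed RPKM of the 3 *Egln* genes that *Egln1* held went from 47.0% ± 0.316 in control to 65.9% ± 2.20 in senescent cells (SD, n = 3). That of *Egln2* went from 30.2% ± 2.78 to 18.8% ± 3.97, and that of *Egln3* from 22.7% ± 2.50 to 15.3% ± 1.77. With 3 libraries in each group, 0.1 is the smallest p that the exact two-sided permutation test of a share allows, and the shares of these families had this value here and below unless another is stated. In all, 28 shares in 12 families were compared, so none can pass a correction.

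Other oxygen-sensing genes were counted from a list of 13, all tested: 4 rose (30.8%, background 36.2%), 3 fell (23.1%, background 34.1%) and 6 did not pass the test. *Cited2*, which competes with HIF for the coactivators CBP and p300, rose from 25.1, 27.0 and 27.7 CPM to 98.2, 109 and 119 CPM (log2 fold change 2.03, edgeR adjusted p = 4.52e-07). *Arnt2* (0.36) and *Tceb1* (0.59), which encodes elongin C of the VHL complex, also rose on the log2 scale. *Hif3a* rose too, from 2 or 3 counts in each control library to 0.397, 0.202 and 0.391 CPM in the senescent libraries. *Siah1b* (-1.09), *Tceb2* (-0.78) and *Ep300* (-0.15) fell. Without senescent replicate 3, the senescent mean of *Tceb2* was 58.5 in place of 48.2 CPM, beside a control mean of 82.4 CPM.

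The 2 glucose transporters went in opposite directions from very unequal levels. *Slc2a1* (chromosome 4 of mm10 from 119108711 to 119137330), which encodes GLUT1, fell from 121, 135 and 134 CPM in control to 109.6, 116 and 84.3 CPM in senescent libraries (log2 fold change -0.33, SE 0.12, edgeR adjusted p = 0.0346). The groups were separate, with senescent replicate 3 the lowest, but the call was lost when scaling used library size alone (edgeR adjusted p = 0.0824), under a filter of 10 or more counts per library (0.0684) or when control replicate 2 or 3 was left out (0.101 and 0.0976). *Slc2a3*, which encodes GLUT3, a transporter of high affinity, rose from 3.09, 3.25 and 2.82 to 5.74, 6.22 and 6.43 CPM (log2 fold change 1.01, SE 0.10, edgeR adjusted p = 5.17e-05). Per length, GLUT1 mRNA still made up 97.7% ± 0.507 of the sum of both in senescent cells, against 99.1% ± 0.0865 in control cells (SD, n = 3). Reads of *Slc2a3* are uncertain because a processed pseudogene, *Gm4482*, lies within it and was counted apart.

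Of the 14 glycolytic enzyme genes, 10 fell (71.4%, background 34.1%), 2 rose (*Hk2* and *Eno2*, 14.3%, background 36.2%) and 2 did not pass the test (*Hk1*, *Gpi1*). Summed, the 14 genes gave 8262, 8949 and 8882 CPM in control replicates 1, 2 and 3 and 5925, 6180.5 and 4590 CPM in senescent replicates 1, 2 and 3. Every senescent sum was below every control sum, with replicate 3 the lowest.

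At the first step, *Hk2* (chromosome 6 of mm10 from 82725025 to 82774454), the regulated hexokinase that binds mitochondria and is induced by insulin and HIF, was at 34.3, 35.3 and 34.5 CPM in control and 63.2, 64.7 and 61.0 CPM in senescent replicates. The 2 groups were far apart relative to their spread, and *Hk2* rose 1.82-fold (log2 fold change 0.86, SE 0.056, edgeR adjusted p = 4.42e-06). *Hk1*, the constitutive hexokinase, was at 123 ± 2.35 and 131 ± 11.5 CPM (log2 fold change 0.092, 95% interval -0.078 to 0.26, edgeR adjusted p = 0.290). Senescent replicate 3 alone lay below its control range, and without that library *Hk1* passed the test (log2 fold change 0.17, edgeR adjusted p = 0.000501). The share of *Hk2* in the RPKM of the pair went from 28.7% ± 0.258 to 40.7% ± 1.55 (SD, n = 3). *Gpi1*, glucose phosphate isomerase of the second step, was at 435 ± 14.3 and 387 ± 49.0 CPM, with an interval of the log2 fold change from -0.39 to 0.049 (edgeR adjusted p = 0.142).

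Phosphofructokinase, the committed step, fell in all 3 of its subunit genes. The liver-type subunit *Pfkl* was at 224, 258 and 255 CPM in control and 139.6, 151 and 86.1 CPM in senescent libraries (log2 fold change -0.97, SE 0.19, edgeR adjusted p = 0.00231). Its log2 fold change had the largest SE among the enzymes, and the mean senescent level without senescent replicate 3 was 145 CPM. The muscle-type subunit *Pfkm* fell from 66.1, 70.5 and 70.3 to 35.2, 35.7 and 27.8 CPM (log2 fold change -1.07, edgeR adjusted p = 3.85e-05). The platelet-type subunit *Pfkp* fell from 109, 103 and 102 to 73.9, 72.5 and 68.2 CPM (log2 fold change -0.55, edgeR adjusted p = 8.17e-05). *Pfkl* held 61.8% ± 1.52 of the family's RPKM in control and 59.7% ± 5.01 in senescent cells (SD, n = 3; exact permutation p = 0.7). *Pfkm* overlaps *Senp1*, which had 101% of its counts, and *Pfkp* overlaps *Pitrm1*, with 145% of its counts. The log2 fold changes of these neighbours were -0.30 and -0.13.

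The regulators *Pfkfb3* and *Pfkfb4* make and remove fructose 2,6-bisphosphate, the strongest activator of phosphofructokinase. *Pfkfb3*, the isoform with the highest kinase activity, fell from 100.1, 102 and 101 CPM to 66.5, 65.2 and 69.1 CPM (log2 fold change -0.59, SE 0.052, edgeR adjusted p = 2.51e-05). *Pfkfb4* was also lower, 9.28, 9.44 and 9.73 against 8.44, 7.72 and 7.05 CPM (log2 fold change -0.30, edgeR adjusted p = 0.0201). It no longer passed when libraries were scaled by size alone (edgeR adjusted p = 0.0661) or without control replicate 2, control replicate 3 or senescent replicate 2 (0.0610, 0.0736 and 0.0566).

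Below phosphofructokinase, the aldolase, isomerase and kinase steps fell as well. *Aldoc* (chromosome 11 of mm10 from 78322968 to 78327781), the brain-type aldolase and a HIF target, had the largest decrease of all 37 members. It was at 34.4, 36.2 and 33.9 CPM in control and 7.67, 8.96 and 5.96 CPM in senescent libraries, and fell to 0.216 of the control level (log2 fold change -2.21, SE 0.14, edgeR adjusted p = 4.56e-06). *Aldoa*, which held 97.6% ± 0.151 of aldolase RPKM in control cells (SD, n = 3), fell from 1123, 1253 and 1261 CPM to 1007, 1023 and 727 CPM (log2 fold change -0.40, edgeR adjusted p = 0.0238). It did not pass when only library size was used for scaling (edgeR adjusted p = 0.0510), with no filter beyond 1 count in total (0.0619) and without control replicate 2 or 3 (0.0725 and 0.0755). *Tpi1*, triose phosphate isomerase, fell from 741, 787 and 779 CPM to 415, 419 and 334 CPM (log2 fold change -0.98, SE 0.092, edgeR adjusted p = 3.82e-05). *Pgk1*, the first ATP-forming enzyme, fell from 717, 699 and 717 CPM to 505, 511 and 562 CPM (log2 fold change -0.43, edgeR adjusted p = 0.000334). It was the single enzyme gene in which senescent replicate 3 was the highest senescent library. *Gapdh*, between the isomerase and *Pgk1* in the pathway and often used as a reference gene, is no member and fell from 1683 ± 56.1 to 1090.5 ± 234 CPM (SD, n = 3 per group; log2 fold change -0.63, edgeR adjusted p = 0.00527).

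At the last steps, *Pgam1*, phosphoglycerate mutase, fell from 166, 169 and 166 CPM to 139, 144 and 127 CPM (log2 fold change -0.29, edgeR adjusted p = 0.00316). *Eno1* (chromosome 4 of mm10 from 150236721 to 150248879), the ubiquitous enolase, was at 2246, 2471 and 2438 CPM in control and 1285, 1331 and 890.1 CPM in senescent libraries. It fell to 0.490 of the control level (log2 fold change -1.03, SE 0.14, edgeR adjusted p = 0.000355), and without senescent replicate 3 the log2 fold change was -0.86, under the study's fold. *Eno2*, the neuronal enolase, went the other way, from 13.7, 16.3 and 15.0 CPM to 19.8, 19.0 and 17.0 CPM (log2 fold change 0.31, edgeR adjusted p = 0.0199). The *Eno2* call was lost without control replicate 1, control replicate 3, senescent replicate 1 or senescent replicate 2 (edgeR adjusted p = 0.0831, 0.0692, 0.0686 and 0.0506), and *Eno1* held 98.2% ± 0.275 of the RPKM of the pair in senescent cells (SD, n = 3). *Pkm*, pyruvate kinase, whose splice forms M1 and M2 are not separated by gene counts, fell from 2246, 2479 and 2450.0 CPM to 1681, 1849 and 1235 CPM (log2 fold change -0.59, SE 0.14, edgeR adjusted p = 0.00528). Several of these enzymes have many processed pseudogenes in the mouse genome, and the treatment of reads that map to more than 1 place is not given in the sources used here, so their levels are uncertain to that extent.

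Summed per step over the genes listed for that enzyme, levels per length were below control at all steps but the first. These steps included glucose phosphate isomerase, whose single gene *Gpi1* did not pass the test. Hexokinase was at 127% of its control RPKM, from 20.6 ± 0.337 to 26.1 ± 1.65 (SD, n = 3). Glucose phosphate isomerase was at 89.0% (95.5% without senescent replicate 3), phosphofructokinase at 52.4%, aldolase at 74.5%, triose phosphate isomerase at 50.6% and GAPDH at 64.8%. Phosphoglycerate kinase was at 74.0%, phosphoglycerate mutase at 54.7%, enolase at 49.7%, pyruvate kinase at 66.4% and lactate dehydrogenase at 62.4%. The groups did not overlap at any of the 11 steps, beside 75.3% of all tested genes without overlap. Without senescent replicate 3 the values ran from 54.2% (triose phosphate isomerase) to 132% (hexokinase). The steps with the highest RPKM, pyruvate kinase (920.2 ± 48.8 in control) and lactate dehydrogenase (587 ± 4.04), were not those with the largest decrease in percent of control.

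**Figure D3:**
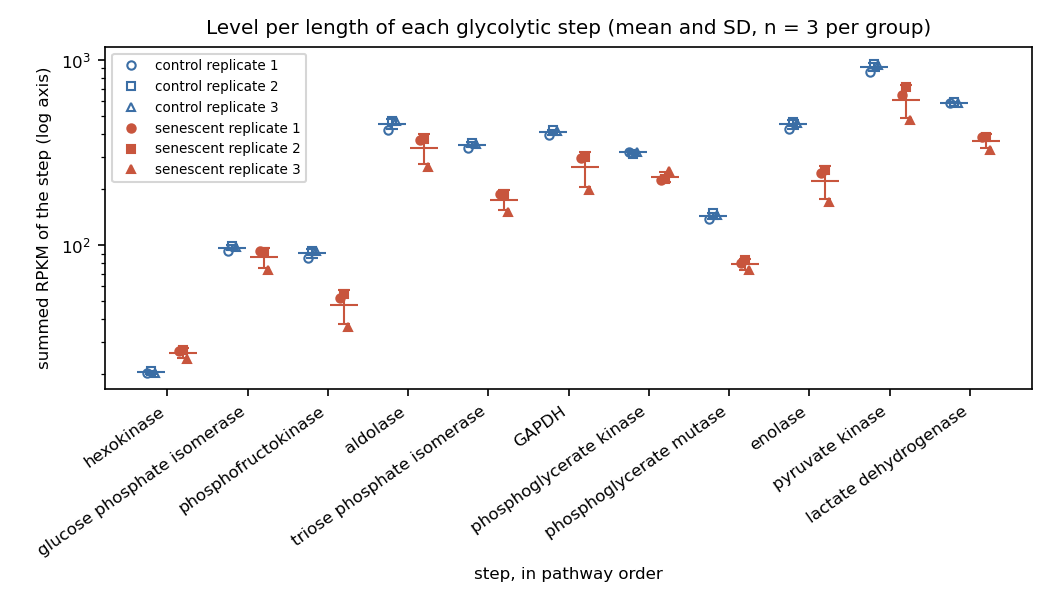
Summed RPKM (log axis) of the genes listed for each glycolytic step, in pathway order, in each control (open blue) and senescent (filled red) library, with group mean and SD as bars (n = 3). Senescent libraries lie above control at hexokinase (127% of control) and below it at the other 10 steps, with enolase lowest at 49.7%.

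The members that direct pyruvate to lactate all fell (100%, background 34.1%). *Ldha* (chromosome 7 of mm10 from 46841475 to 46855627), lactate dehydrogenase A, was at 1624, 1645 and 1631 CPM in control and 1057, 1061 and 899 CPM in senescent libraries, and fell to 0.616 of the control level (log2 fold change -0.70, SE 0.074, edgeR adjusted p = 7.25e-05). *Ldhb*, the isoform that favours pyruvate formation, is no member and fell from 61.0 ± 0.885 to 45.7 ± 3.20 CPM (SD, n = 3 per group; log2 fold change -0.42). The *Ldha* share of the pair was 93.4% ± 0.0705 in control and 92.0% ± 0.214 in senescent cells (SD, n = 3). *Slc16a3* (chromosome 11 of mm10 from 120948480 to 120960868), which encodes the lactate exporter MCT4, was at 133, 156 and 154 CPM in control and 44.4, 50.2 and 29.8 CPM in senescent libraries. All senescent values were far below the controls, and the level fell to 0.281 of control (log2 fold change -1.83, SE 0.18, edgeR adjusted p = 4.98e-05). *Slc16a1*, which encodes MCT1, a carrier that moves lactate in both directions, was slightly higher, 42.3, 42.1 and 39.4 against 44.7, 46.1 and 53.1 CPM (log2 fold change 0.22, edgeR adjusted p = 0.0405). The share of MCT1 mRNA in the RPKM of both carriers thus went from 25.2% ± 2.21 to 58.5% ± 8.49 (SD, n = 3).

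Pyruvate dehydrogenase kinases keep pyruvate out of the mitochondrial citric acid cycle. *Pdk1* (chromosome 2 of mm10 from 71873224 to 71903858), the HIF-induced kinase, was at 165, 151 and 149 CPM in control and 58.8, 59.8 and 64.9 CPM in senescent libraries. The groups were far apart, and *Pdk1* fell to 0.395 of the control level (log2 fold change -1.34, SE 0.068, edgeR adjusted p = 1.22e-06). *Pdk3* fell as well, from 74.1, 70.0 and 74.5 to 34.1, 33.2 and 39.0 CPM (log2 fold change -1.04), and so did *Pdk2* (-0.32 on the log2 scale, edgeR adjusted p = 0.0127). *Pdk4*, a kinase known to be induced by fasting and glucocorticoids, rose from 8.32, 8.65 and 8.28 CPM to 45.8, 45.3 and 53.9 CPM (log2 fold change 2.52, SE 0.090, edgeR adjusted p = 1.94e-07). Per length, *Pdk3* and *Pdk1* held 50.2% ± 1.05 and 35.1% ± 1.31 of the kinase mRNA in control cells (SD, n = 3). In senescent cells, *Pdk3* and *Pdk4* held 34.4% ± 0.868 and 34.2% ± 1.21, *Pdk1* 19.6% ± 0.313 and *Pdk2* 11.9% ± 1.82 (exact permutation p = 0.4 for *Pdk2*). The *Pdk4* share had been 4.23% ± 0.198 in control cells. With counts not divided by length, the changes in share were -22.5 percentage points for *Pdk1* in place of -15.5 and -6.45 for *Pdk3* in place of -15.8, and the order of *Pdk1* and *Pdk3* in control cells turned.

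**Figure D4:**
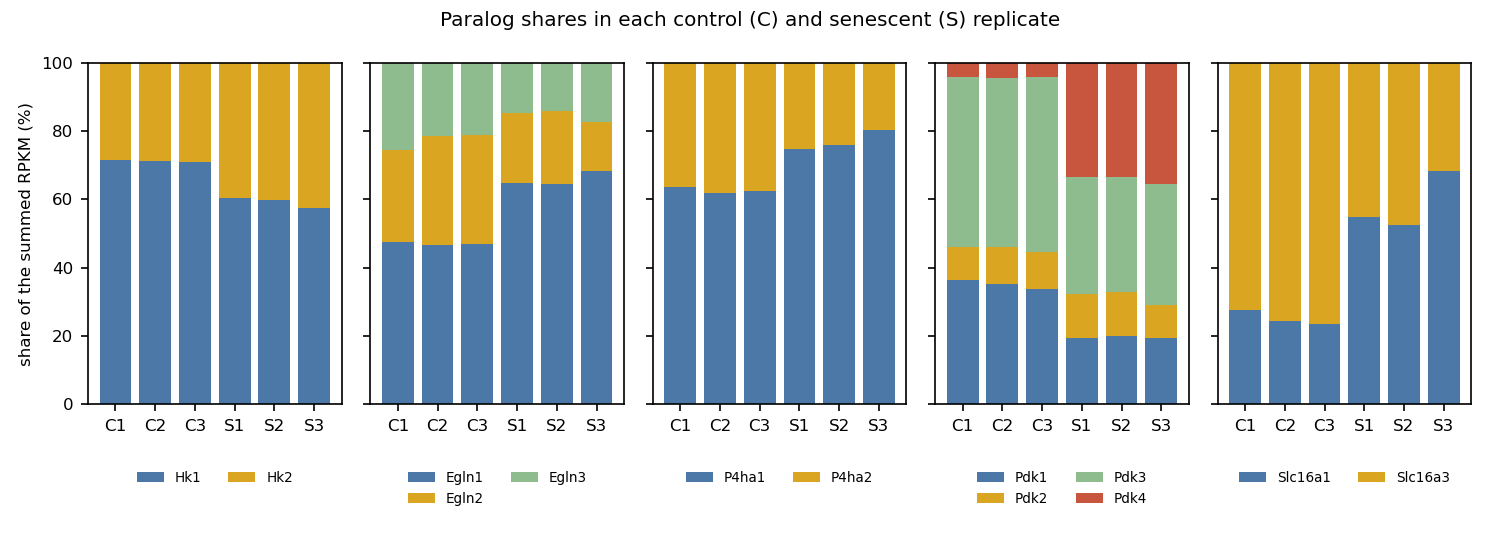
Stacked bars give the percent of the summed RPKM of 5 gene families that each paralog held, in control replicates 1 to 3 (C1 to C3) and senescent replicates 1 to 3 (S1 to S3). In the senescent bars *Hk2*, *Egln1*, *P4ha1*, *Pdk4* and *Slc16a1* take a larger share than in any control bar, most of all *Slc16a1* (25.2% to 58.5%) and *Pdk4* (4.23% to 34.2%).

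Around these members, a list of 13 genes for the entry of pyruvate into mitochondria held 4 that rose (*Pdk4*, *Dlat*, *Dld* and *Pdhx*) and 6 that fell (*Pdk3*, *Pdp2*, *Pcx*, *Pdha1*, *Pdk2* and *Mpc2*), or 30.8% and 46.2% beside backgrounds of 36.2% and 34.1%. *Dlat* and *Dld*, subunits of the pyruvate dehydrogenase complex, rose by 0.52 and 0.41 on the log2 scale. *Pcx*, pyruvate carboxylase, fell to 0.457 of the control level, and *Pdp2*, a phosphatase that reverses the kinases, had a log2 fold change of -0.81. Of 20 tested genes on a list of 23 further genes of glycolysis and lactate, 6 rose (30.0%, background 36.2%) and 9 fell (45.0%, background 34.1%). *Pgam2*, the muscle-type mutase, fell from 40.0, 47.1 and 46.5 CPM to 3.99, 4.08 and 2.96 CPM (log2 fold change -3.60, edgeR adjusted p = 3.04e-07). Its share of mutase RPKM, computed after its values had been seen and not tested, went from 36.7% ± 1.97 to 5.52% ± 0.597 (SD, n = 3). *Pfkfb1* also fell (-2.18 on the log2 scale). *Bpgm*, which makes 2,3-bisphosphoglycerate, rose from 12.8 ± 1.03 to 32.6 ± 1.71 CPM, and *Tigar*, a p53 target that lowers fructose 2,6-bisphosphate, from 8.42 ± 0.359 to 18.6 ± 0.725 CPM (SD, n = 3 per group). *Hkdc1* rose from at most 3 counts in a control library to 19, 31 and 29 counts in the senescent libraries.

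The pentose phosphate pathway branches from glucose 6-phosphate and yields NADPH. Of its 8 listed genes, 5 fell (62.5%, background 34.1%) and 1 rose (12.5%, background 36.2%). *G6pdx*, its rate-limiting enzyme, fell to 0.615 of the control level, *H6pd* to 0.441 and *Tkt*, transketolase, to 0.524, whereas *Rpe* rose 1.48-fold. Of 10 tested genes of gluconeogenesis and glycogen (13 listed), 6 fell (60%, background 34.1%) and 2 rose (20%, background 36.2%). Glycogen phosphorylases *Pygb* (-1.20) and *Pygl* (-0.85) and glycogen synthase *Gys1* (-1.36) fell on the log2 scale, and the branching enzyme *Gbe1* rose from 11.4 ± 0.803 to 35.1 ± 4.56 CPM (SD, n = 3 per group). *Pygm*, the muscle phosphorylase, had a log2 fold change of 1.22. Over all 94 tested genes of these lists and those of other HIF pathway genes, 27 rose (28.7%, background 36.2%) and 41 fell (43.6%, background 34.1%), with a median log2 fold change of -0.14.

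The carbonic anhydrases *Car9* and *Car12* hydrate carbon dioxide at the cell surface and help to keep the cytosol from turning acid. *Car9*, a classic HIF-1 target, did not pass the test. It was at 127, 130.1 and 127 CPM in control and 135, 137 and 123 CPM in senescent libraries, with an interval of the log2 fold change from -0.10 to 0.18 (edgeR adjusted p = 0.596). Senescent replicate 3 lay below the control range and the other senescent libraries above it, and without replicate 3 *Car9* passed the test with a log2 fold change of 0.095 (edgeR adjusted p = 0.0255). *Car12*, at much lower levels, fell from 4.51, 3.95 and 4.74 CPM to 2.87, 2.83 and 3.26 CPM (log2 fold change -0.56, edgeR adjusted p = 0.00295).

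All 3 members that modify collagen in the endoplasmic reticulum fell (100%, background 34.1%). *P4ha2* (chromosome 11 of mm10 from 54100095 to 54131665), a catalytic subunit of collagen prolyl 4-hydroxylase, was at 339, 343 and 339 CPM in control and 147, 142 and 117 CPM in senescent libraries. It fell to 0.397 of the control level with no overlap (log2 fold change -1.33, SE 0.089, edgeR adjusted p = 5.57e-06). *P4ha1*, the main catalytic subunit in most tissues, fell from 391, 368 and 371 CPM to 287, 296 and 314 CPM (log2 fold change -0.33, edgeR adjusted p = 0.00126). Its share of the RPKM of both subunits went from 62.7% ± 0.857 to 77.1% ± 2.91 (SD, n = 3). *Plod2*, a lysyl hydroxylase that prepares collagen for stable cross-links, fell from 181, 172 and 172 CPM to 103, 98.8 and 123 CPM (log2 fold change -0.69, edgeR adjusted p = 0.000206). *Col1a2* and *Col2a1*, whose proteins are substrates of these enzymes, also fell, from 5612 ± 330.0 to 1531 ± 239 CPM and from 2717 ± 246 to 168 ± 37.3 CPM (SD, n = 3 per group).

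Of the 4 remaining hypoxia-inducible members, 2 rose (50%, background 36.2%) and 2 fell (50%, background 34.1%). *Adm* (chromosome 7 of mm10 from 110627661 to 110629820), which encodes the vasodilator peptide adrenomedullin, was at 28.5, 28.7 and 28.5 CPM in control and 58.3, 59.9 and 55.7 CPM in senescent libraries. The control values were nearly equal, and *Adm* rose 2.03-fold (log2 fold change 1.02, SE 0.058, edgeR adjusted p = 2.07e-06). *Ndrg1* (chromosome 15 of mm10 from 66929321 to 66969640), a stress-responsive gene tied to differentiation and growth arrest, was at 72.4, 72.0 and 72.7 CPM and 130.1, 130.4 and 126 CPM, and rose 1.78-fold (log2 fold change 0.83, SE 0.051, edgeR adjusted p = 3.24e-06). *Kdm3a*, a HIF-induced histone H3 lysine 9 demethylase, fell from 104, 96.1 and 98.6 CPM to 66.2, 63.7 and 75.9 CPM (log2 fold change -0.54, edgeR adjusted p = 0.000446). *Ankrd37*, a HIF-1 target of little known function, fell from 8.02, 7.53 and 8.19 CPM to 4.01, 3.42 and 3.64 CPM (log2 fold change -1.10, edgeR adjusted p = 2.38e-05). It overlaps *Ufsp2*, whose mean count of 4206 per library exceeds the 342 of *Ankrd37* and whose log2 fold change was -0.40. It also overlaps *Lrp2bp*, which had 23.3% of its counts and a log2 fold change of -1.47.

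A list of 30 other hypoxia-inducible genes, all tested, also held genes of both directions: 10 rose and 12 fell. These shares, 33.3% and 40.0%, were near the backgrounds of 36.2% and 34.1%. *Edn1*, endothelin 1, rose from 1.80 ± 0.242 to 28.9 ± 1.46 CPM (SD, n = 3 per group), and *Cxcr4*, a chemokine receptor, from at most 5 counts in a control library to 2.56, 2.44 and 2.49 CPM in the senescent libraries. *Vegfa*, the angiogenic factor and a standard HIF target, rose from 73.3, 76.3 and 79.4 CPM to 148, 151 and 132 CPM (log2 fold change 0.91, SE 0.070, edgeR adjusted p = 1.29e-05). *Hmox1*, heme oxygenase 1, *Stc2*, *Bhlhe40* and *Ero1l* rose by 2.34, 1.54, 1.11 and 1.32 on the log2 scale. *Bnip3*, a HIF target in mitophagy, fell from 195, 187 and 188 CPM to 86.5, 87.0 and 106 CPM (log2 fold change -1.03, SE 0.086, edgeR adjusted p = 2.03e-05). *Ddit4*, an inhibitor of mTORC1, fell to 0.353 of its control level, *Ppp1r3c*, a glycogen-targeting phosphatase subunit, to 0.225 and *Zfp395* to 0.207.

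**Figure D5:**
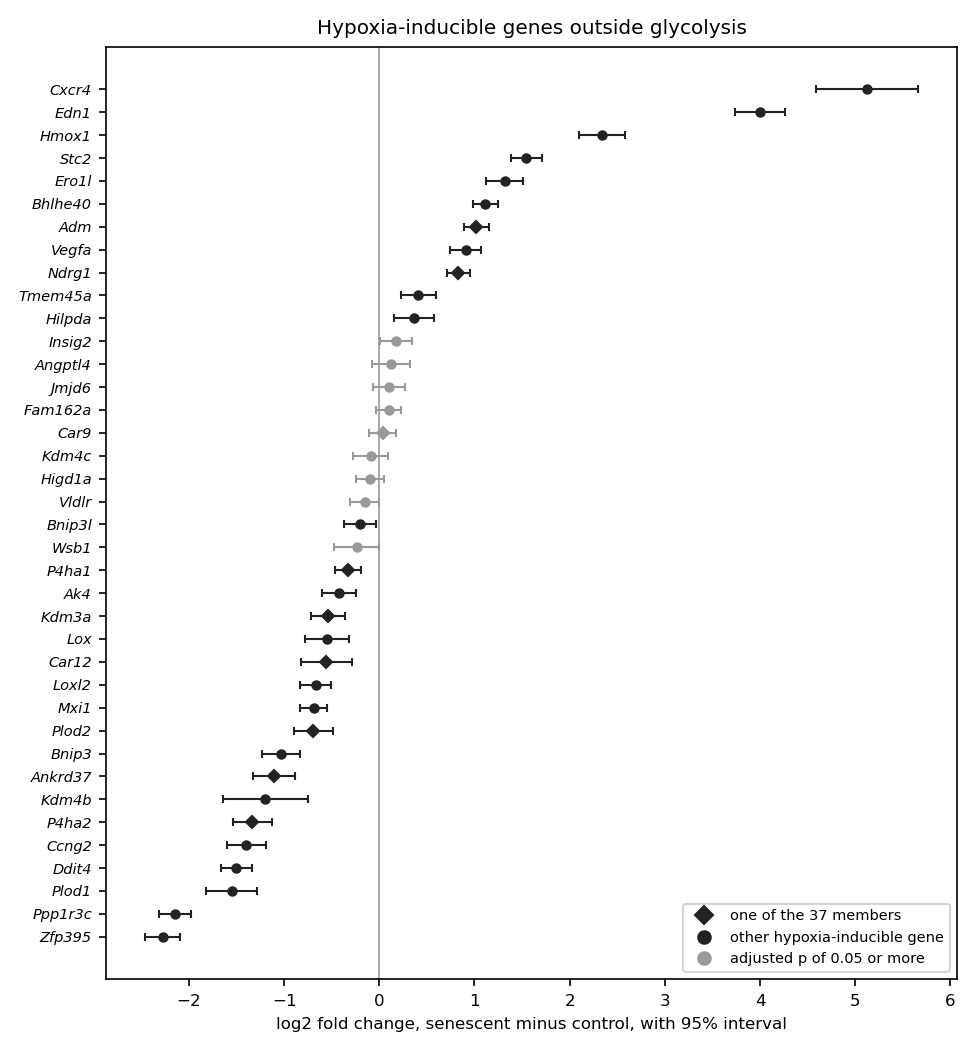
Log2 fold change (senescent minus control) with its 95% interval for 9 members (diamonds) and other hypoxia-inducible genes (circles) outside glycolysis, black at an adjusted p under 0.05 and grey otherwise. *Adm* and *Ndrg1* lie right of 0 with *Vegfa* and *Edn1*, and *P4ha2* and *Ankrd37* lie left of 0 with *Bnip3* and *Ddit4*.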

How the data were processed

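RNA-seq counts of 3 control and 3 senescent MAF samples were analysed. The authors ran the MAPRSeq pipeline, in which STAR aligned paired-end reads to mm10 and the Subread package counted them per gene, and deposited the raw counts. Libraries were made with a stranded mRNA kit. The strand setting and the treatment of reads with several matches are not given in the sources used here, so overlapping genes, antisense genes and near-identical copies are uncertain.

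All 43346 genes were fitted together. Genes were kept by filterByExpr (17589), scaled by TMM and tested, senescent against control, with the robust two-sided quasi-likelihood test of edgeR 4.0.16 (R 4.3.3), the group being its one term, with Benjamini-Hochberg adjustment over all genes tested. Adjusted p-values in the text come from this test unless another is named. RPKM is TMM-scaled CPM divided by the gene length in the count table. Paralog shares were compared with exact permutation tests. Alternatives were RLE scaling, library size alone, no filter, at least 10 counts in every library, the edgeR exact test, DESeq2 1.42.0, a replicate block and leaving out each library. The methods were tested on simulated data. A count of 0 allows up to 3 counts, 0.0355 to 0.0613 CPM, and this limit covers counting error only. The 95% intervals of log2 fold changes come from the quasi-likelihood fit and include the spread between libraries.

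The members, the other gene lists and the marker lists were chosen with earlier results of these data known, so no test was made over a list. The text names all 37 members, the 3 genes with the smallest p in each direction of every other list where there are that many, *Gapdh*, *Vegfa*, *Bnip3*, *Pdk2*, *Pdk3*, *Pdk4*, *Ldhb* and *Slc16a1*, and the highest marker of each list. Of the genes that this rule names, 2 are not reported here. Markers with at most 3 counts were named after their values had been seen. *Tigar* is listed under its clone name in the count table. Promoter windows came from RefSeq (GRCm38.p6) and matched 33 of 37 members with 49 windows.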

Additional observations from a re-analysis of the deposited data

How the results depend on the processing

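Over 13 alternatives, members called higher numbered 6 to 9 (7 in the fit reported) and members called lower 23 to 26 (26). By the study's threshold they numbered 2 to 3 (3) and 5 to 10 (7), and other pathway genes called 58 to 79 (68). Of the 37 members, 31 kept their direction and side of the threshold in every alternative run. The exceptions were *Slc2a1*, *Aldoa*, *Eno2* and *Pfkfb4*, which lost the call in some, and *Hk1* and *Car9*, which gained one without senescent replicate 3. Without senescent replicate 3, *Eno1* (-0.86), *Pfkm* (-0.95) and *Slc2a3* (0.98) no longer reached the study's fold on the log2 scale. With counts not divided by length, 9 of the 28 paralog shares moved by more than 1 SD, none in direction. Those that moved by over 1.5 times were *Slc2a3* (1.42 to 3.42 percentage points), *Pdk3* (-15.8 to -6.45) and *Ldha* (-1.34 to -0.757), each with the complement in its family where it has 2 genes. The same-numbered control and senescent libraries had correlations of -0.374, 0.293 and -0.263 in their deviations from the group means. With 3 libraries per group and senescent replicate 3 standing apart, these values cannot show whether the numbers pair the libraries. With a replicate block, 7 members were higher and 25 lower (*Pfkfb4*, edgeR adjusted p = 0.0530), 3 and 8 by the study's threshold, and 63 other pathway genes were called. The difference in the *Pfkl* share of phosphofructokinase RPKM, -2.10 percentage points, ran from -3.98 to 0.739 with 1 library left out and turned positive without senescent replicate 3. Every member had over 100 counts in every library.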
